A study of Arabidopsis thaliana with 12 samples.

Results

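Proline is made and broken down in Arabidopsis by a short set of enzymes, and the transcripts of 6 of their genes are described here in seedlings of wild type and of lines named for loss of histone H3.3, of histone H2A.Z, or of both. The genes were listed by locus for their place in the pathway and are 6 of the 23387 genes in the deposited table. P5CS1 (AT2G39800), P5CS2 (AT3G55610) and P5CR (AT5G14800) encode the synthesis enzymes. ERD5 (AT3G30775), PRODH2 (AT5G38710) and P5CDH (AT5G62530) encode the breakdown enzymes.

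Proline is built from glutamate in the cytosol and plastid, where Δ1-pyrroline-5-carboxylate synthetase (P5CS) forms an intermediate that Δ1-pyrroline-5-carboxylate reductase (P5CR) turns into proline. In mitochondria, proline dehydrogenase returns proline to the same intermediate, and Δ1-pyrroline-5-carboxylate dehydrogenase (P5CDH) converts that back to glutamate. Plants are known to raise P5CS1 and lower proline dehydrogenase transcripts under water shortage and abscisic acid (ABA), and to do the reverse when water returns.

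RNA was sequenced from whole seedlings of Arabidopsis thaliana, 7 days old, that had been raised at 21 °C in short days and then moved for 12 h to 27 °C. The wild type accession is Col, h3.3kd is a line named for a knockdown of H3.3 and given in the genotype field as h3.3kd-1, h2a.z is a line named for H2A.Z, and h3.3kd;h2a.z carries both and is called the combined line below. Each had 3 libraries, 12 in all, and every library came from the warm treatment. The alleles, the construct behind the knockdown, and whether replicates were separate cultures are not stated in the labels, so p-values measure only the spread between these samples.

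Expression is given as TPM, transcripts per 1000000, which is scaled by gene length so that levels of different genes can be compared. The gene lengths and counting mode used are not stated, and comparisons between genes rest on them. TPM does not keep the read depth of a library, so depth is unknown here and no counting interval is given. Differences are log2 fold changes of TPM + 1 with their standard errors from limma, and a gene was called at a Benjamini-Hochberg adjusted p under 0.05 over the 19937 genes tested. Where all libraries of a genotype lie above or below those of another, this describes that gene only. The share of all genes that separate in that way was not counted. In whole seedlings, fewer cells of a type and less RNA per cell cannot be told apart.

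The targeted histone genes were lower in the lines named for them. HTR4, HTR5 and HTR8, which encode H3.3, changed from Col by -2.59 to -4.31 on the log2 scale in h3.3kd, and HTA8, HTA9 and HTA11, which encode H2A.Z, by -2.93 to -3.94 in h2a.z. Limma also called smaller decreases outside those targets, HTR5 at -0.65 and HTR8 at -0.49 in h2a.z and HTA8 at -0.70 in h3.3kd, of which HTR8 and HTA8 ended in 14 of 22 and 18 of 23 alternatives. All 6 were lower in the combined line, where HTA9 stood 1.41 ± 0.22 above its level in h2a.z (limma adjusted p = 0.000313). Leaf markers were abundant in every library. The 4 genes summed to 38411 to 47800 TPM in Col and 34132 to 65566 in h3.3kd. They summed to 33386 to 36368 in h2a.z, all below Col, and 51180 to 53097 in the combined line, all above Col. Of the 4, only LHCB2.1 was called against Col, lower in h3.3kd, from a mean of 57.7 to 34.2 TPM. That call ended in 5 of 23 alternatives. Flower markers summed to at most 1.35 TPM. The 6 root markers summed to 124 to 155 TPM in Col, 68.7 to 131 in h3.3kd, 168 to 178 in h2a.z and 99.3 to 106 in the combined line. These root markers did not move alike. Against Col, IRT1 was called lower in h3.3kd and the combined line and higher in h2a.z. Its mean was 28.4 TPM in Col and 64.5 in h2a.z. The h2a.z call of IRT1 ended in 6 of 22 alternatives, whenever 1 library of Col or h2a.z was left out. Also against Col, WER was called lower in h3.3kd and the combined line, CASP1 in the combined line, and SCR in none. The 4 seed markers summed to 3.38 to 4.05 TPM in Col, 39.7 to 66.3 in h3.3kd, 45.2 to 159 in h2a.z and 171 to 393 in the combined line. The storage protein genes CRC and CRA1 made up most of the sum outside Col, whereas ABI3, a seed transcription factor, was called lower in h2a.z, from a mean of 2.98 to 0.358 TPM. The part of leaf, root and seed markers in the results below was not tested. Library 2 of h3.3kd stood apart, with a root mean square distance from its genotype mean of 0.405 on the log2 scale against 0.183 to 0.324 in the other 11 libraries. It also had the fewest genes above 0 TPM, 19590 against 20831 to 22019 in the other 11.

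The sequence just before 4 of the genes is shown because a short element, ACTCAT, is known from the proline dehydrogenase promoter as a proline and hypoosmolarity response element and was found unevenly among the 6 genes. Each window is the 300 bases before the annotated start, in the direction of the gene, from RefSeq build TAIR10.1, and all 4 genes lie on the minus strand. The windows are chr3:12451557-12451856 for ERD5, chr5:25103313-25103612 for P5CDH, chr3:20629296-20629595 for P5CS2 and chr2:16603320-16603619 for P5CS1. Capitals mark ACTCAT or its reverse complement ATGAGT, and in P5CS2 also CCGAC, the core of a drought response element.
ERD5: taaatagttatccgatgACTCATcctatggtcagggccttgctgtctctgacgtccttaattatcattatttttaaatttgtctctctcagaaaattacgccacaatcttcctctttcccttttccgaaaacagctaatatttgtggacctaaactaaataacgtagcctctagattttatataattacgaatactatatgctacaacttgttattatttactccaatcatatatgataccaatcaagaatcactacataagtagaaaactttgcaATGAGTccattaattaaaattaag
P5CDH: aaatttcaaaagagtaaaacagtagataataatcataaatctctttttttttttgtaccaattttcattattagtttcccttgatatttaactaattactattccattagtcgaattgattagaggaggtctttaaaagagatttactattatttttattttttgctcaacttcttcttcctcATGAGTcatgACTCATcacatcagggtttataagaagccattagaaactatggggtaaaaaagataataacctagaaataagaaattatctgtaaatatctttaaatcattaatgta
P5CS2: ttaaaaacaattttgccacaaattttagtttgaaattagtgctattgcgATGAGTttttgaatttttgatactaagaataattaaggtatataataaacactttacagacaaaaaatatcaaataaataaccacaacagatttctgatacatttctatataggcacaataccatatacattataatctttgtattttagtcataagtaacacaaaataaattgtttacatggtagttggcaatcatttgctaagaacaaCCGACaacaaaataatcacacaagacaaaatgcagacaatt
P5CS1: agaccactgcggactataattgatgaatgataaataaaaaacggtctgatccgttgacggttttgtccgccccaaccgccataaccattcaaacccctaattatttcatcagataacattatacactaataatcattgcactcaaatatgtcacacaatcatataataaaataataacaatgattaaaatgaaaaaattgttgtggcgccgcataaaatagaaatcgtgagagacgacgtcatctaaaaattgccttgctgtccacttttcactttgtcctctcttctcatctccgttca

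ERD5 and P5CDH, both breakdown genes, each held 2 copies of ACTCAT in the window, counting both strands. In ERD5 the copies began 283 and 24 bases before the start, and in P5CDH 117 and 107 bases before it. P5CS2 held 1 copy at 251 bases. Of all 27443 windows of that length, 14.8% held at least 1 copy and 1.42% held 2 or more. The ABA response core ACGTG occurred in 25.6% of windows and once in P5CR, and CCGAC in 13.9% and once each in P5CS2 and P5CR. The G-box CACGTG, in 7.09% of windows, and the phosphate response site GNATATNC, in 6.5%, were in none of the 6. P5CS1 and PRODH2 held none of these 5 motifs, which says only that the letters are not in this window. Matches are descriptions of sequence, not of binding.

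P5CS1 encodes the synthetase that supplies most proline made under stress, and it varied most among the synthesis genes. It was at 33.4, 31.8 and 49.2 TPM in the 3 Col libraries, 81.7, 102 and 87.7 in h3.3kd, 22.8, 25.4 and 29.6 in h2a.z, and 36.4, 35.2 and 32.4 in the combined line. All 3 h3.3kd libraries were above all 9 others, all 3 h2a.z libraries were below all others, and the combined line lay within the range of Col. The order of the genotype means was h3.3kd at 90.3 ± 10.2 TPM (SD, n = 3), Col at 38.1 ± 9.60, the combined line at 34.6 ± 2.05 and h2a.z at 25.9 ± 3.42, and Col and the combined line did not differ beyond their spread.

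Against Col, P5CS1 in h3.3kd was 1.24 ± 0.17 higher on the log2 scale (limma adjusted p = 0.000253) and was the 1 proline gene of 6 called in that comparison, where 17.3% of all genes were called. Against the same h3.3kd libraries, the combined line was 1.35 ± 0.17 lower (limma adjusted p = 0.000216), again the only call of 6, with a background of 4.25%. Between the single lines, P5CS1 was 1.76 ± 0.17 higher in h3.3kd than in h2a.z (limma adjusted p = 2.7e-06). These comparisons share the h3.3kd libraries.

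The lower level in h2a.z than in Col was small, with a log2 change of -0.52 ± 0.17 and a limma adjusted p = 0.0495, and it was the 1 call of 6 against a background of 15.1%. That call ended in 13 of 22 alternatives, over which the adjusted p ran from 0.0017 to 0.22. Without Col library 3, the highest of its group, the log2 change was -0.33 with an adjusted p = 0.215. It also ended without each single library of h2a.z (adjusted p = 0.167, 0.136 and 0.0523 without libraries 1, 2 and 3), of the combined line (0.0703, 0.0706 and 0.0683) or without h3.3kd library 3 (0.0648).

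The combined line did not keep the h3.3kd level of P5CS1. Lowering H3.3 went with a log2 difference of 1.24 against Col and of 0.41 ± 0.17 against h2a.z (limma adjusted p = 0.0899 for the latter). The latter was called in 6 of 22 alternatives, among them median ratio scaling and quantile normalization (adjusted p = 0.0204 and 0.026) and without Col library 3. The difference between those differences, tested as the interaction, was -0.83 ± 0.24, with a 95% interval from -1.34 to -0.33 and a limma adjusted p = 0.0899, and so was not called. Its unadjusted p was 0.00329. It was called without Col library 3, at -1.03, and with array weights, at -0.62 (adjusted p = 0.0356), when ERD5 was called too. Over the alternatives, genes called for the interaction ran from 234 to 2801, so these calls have no fixed background. In the fit with equal weights on all libraries none of the 6 genes was called for the interaction by limma, where 2.49% of all genes were. There 2 of the 6, P5CS1 and ERD5, had an unadjusted p under 0.05, as did 14% of all genes.

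**Figure D1:**
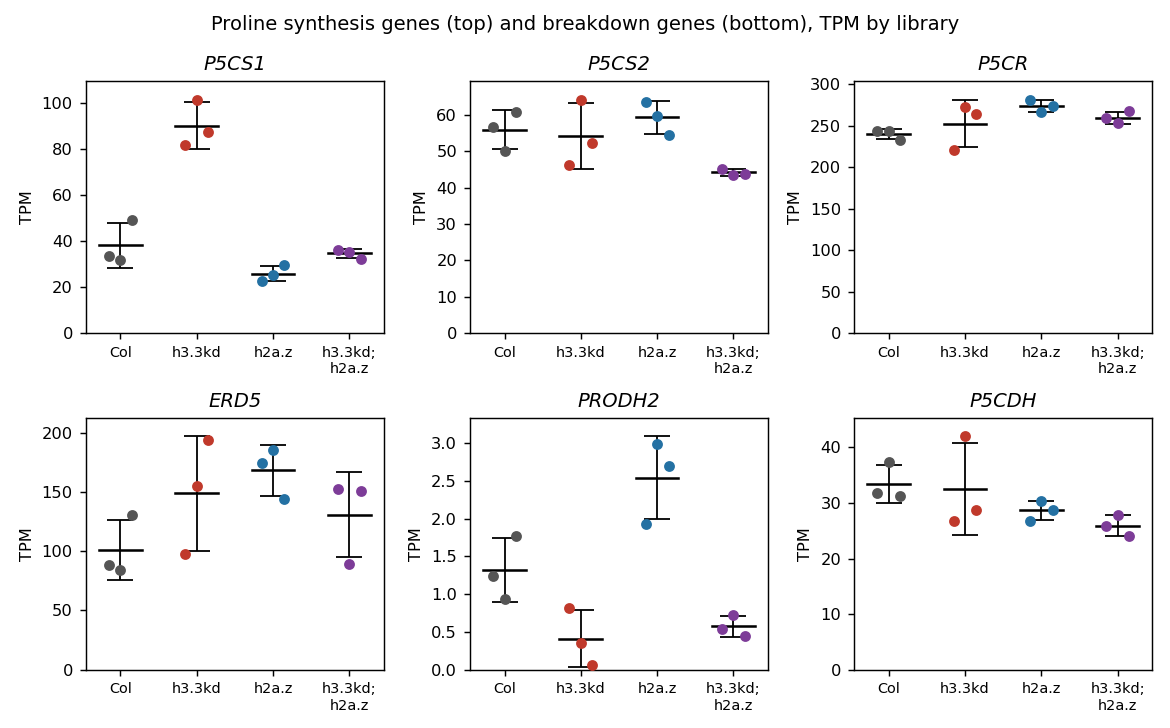
TPM (vertical axes, from 0) of the 6 genes in each library (points) of the 4 genotypes (horizontal axes), with the mean (line) and SD (bars, n = 3). P5CS1 in h3.3kd, at 81.7 to 102 TPM, lies above every other library, and PRODH2 is the gene of lowest level, at most 2.99 TPM.

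P5CS2 encodes the second synthetase, the copy known for a housekeeping role and for need in embryo development. It was at 56.7, 50.2 and 61.0 TPM in Col, 46.4, 64.3 and 52.3 in h3.3kd, 63.7, 59.9 and 54.6 in h2a.z, and 45.3, 43.6 and 43.8 in the combined line. All 3 combined libraries were below the other 9, while the other genotypes overlapped one another. The combined line was lower than h2a.z by a log2 change of -0.42 ± 0.14 (limma adjusted p = 0.0384), but against Col the change of -0.33 ± 0.14 was not called (adjusted p = 0.112).

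Apart from PRODH2, described below, P5CS2 was the 1 call among the 6 genes against h2a.z, with a background of 24.7%, and it ended in 9 of 22 alternatives, over which the adjusted p ran from 0.0014 to 0.12. Among these were both other scalings, the replicate block (adjusted p = 0.052) and leaving out any 1 library of either genotype. In the h3.3kd comparison its log2 change was -0.05 ± 0.14 (limma adjusted p = 0.839), with a 95% interval from -0.34 to 0.24.

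The share of the synthetase pair held by P5CS1 was highest in h3.3kd and lowest in h2a.z, and Col overlapped the combined line. Within each library, the ratio of P5CS1 to P5CS2 TPM was 0.590, 0.633 and 0.806 in Col, 1.76, 1.58 and 1.68 in h3.3kd, 0.357, 0.424 and 0.541 in h2a.z, and 0.803, 0.807 and 0.738 in the combined line. P5CS1 thus exceeded P5CS2 in all 3 h3.3kd libraries and in none of the other 9. A single scaling factor per library leaves this ratio unchanged, and no test was run on it. The coding sequences of the pair were identical at 86.1% of aligned bases, with a longest identical run of 53 bases, and 0.19% of the 50-base stretches of P5CS1 were also in P5CS2, so few stretches of that length are common to both.

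P5CR, which makes the last step to proline, had the highest level of the 6 in every genotype. It stood at 240.2 ± 6.49 TPM in Col, 253 ± 28.3 in h3.3kd, 274 ± 7.69 in h2a.z and 259.9 ± 7.39 in the combined line (SD, n = 3). Each of the h2a.z and combined libraries was above each Col library, but the log2 changes were 0.19 ± 0.11 and 0.11 ± 0.11 and neither was called (limma adjusted p = 0.297 and 0.519). The ratio of P5CS1 to P5CR was 0.358 ± 0.0229 in h3.3kd and 0.160 ± 0.0450 in Col.

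**Figure D2:**
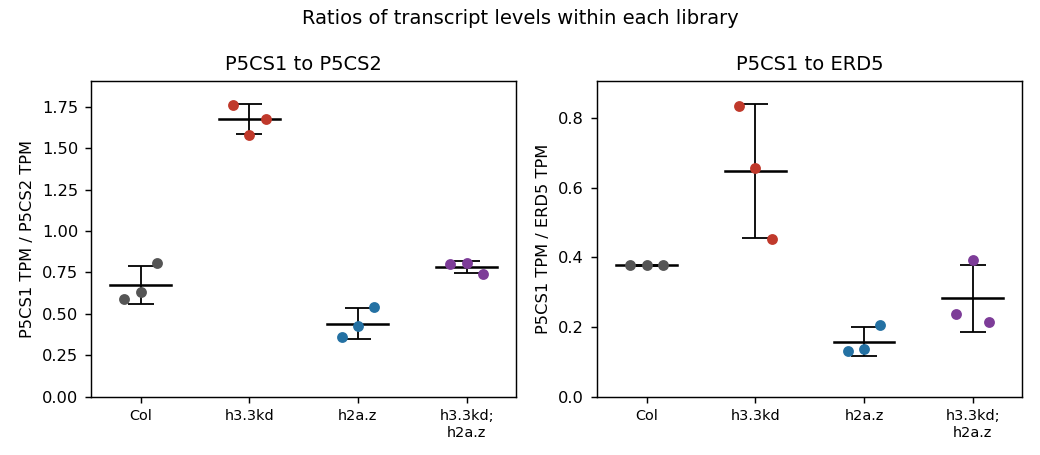
Ratio of P5CS1 to P5CS2 TPM (left) and of P5CS1 to ERD5 TPM (right) within each library (points), with the mean (line) and SD (bars, n = 3) per genotype; the vertical axes start at 0. The h3.3kd libraries alone lie above 1 on the left, at 1.58 to 1.76.

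ERD5 encodes the main proline dehydrogenase, the enzyme that starts breakdown. It was at 88.1, 84.2 and 130 TPM in Col, 97.8, 155 and 194 in h3.3kd, 175, 186 and 144 in h2a.z, and 153, 89.3 and 150 in the combined line. The h2a.z libraries were all above those of Col, whereas the h3.3kd and combined libraries overlapped Col. ERD5 was called in none of the 7 comparisons. The nearest to the threshold was h2a.z against Col, with a log2 change of 0.75 ± 0.25 (limma adjusted p = 0.0618, 95% interval 0.21 to 1.29), which was called in 5 of 22 alternatives, among them without Col library 3, h3.3kd library 1 or 3, or combined library 2.

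In h3.3kd, ERD5 had a log2 change of 0.53 ± 0.25 (limma adjusted p = 0.168), and leaving out h3.3kd library 1, the lowest, gave 0.80 and a call, while leaving out library 3, the highest, gave 0.31. Within each same-numbered pair ERD5 was higher in h3.3kd than in Col, and with the replicate block the adjusted p was 0.145, or 0.0829 with those genotypes fitted alone. The 3 h3.3kd libraries of ERD5 spanned 97.8 to 194 TPM, a wider spread than in any other genotype. Its ratio to P5CS1 was also uneven between libraries. P5CS1 to ERD5 was 0.379, 0.377 and 0.377 in Col, 0.835, 0.656 and 0.453 in h3.3kd, 0.130, 0.137 and 0.205 in h2a.z, and 0.238, 0.394 and 0.215 in the combined line. The ratio was therefore above Col in every h3.3kd library and below Col in every h2a.z library, while the combined line overlapped Col.

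PRODH2 encodes the second proline dehydrogenase and was near the floor of the data. It was at 1.23, 0.942 and 1.78 TPM in Col, 0.812, 0.350 and 0.0684 in h3.3kd, 1.93, 2.99 and 2.70 in h2a.z, and 0.542, 0.727 and 0.451 in the combined line. Every h2a.z library was above every other library, and the h3.3kd and combined libraries were all below Col. PRODH2 passed the filter with 5 libraries at 1 TPM or more, 2 of Col and 3 of h2a.z, so it passed only through h2a.z, where it was high. No h3.3kd or combined library reached 1 TPM, so to be tested it had to be higher elsewhere than in those genotypes. Against Col, which lay near the same threshold, the filter required no difference. The log2 scale with 1 added understates its changes.

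Its log2 differences from h2a.z, -1.35 ± 0.25 for h3.3kd and -1.16 ± 0.25 for the combined line, are therefore given as a description and are not read as calls. With no filter, when every gene enters the limma fit, the adjusted p for PRODH2 was 0.000446 and 0.00197, and under quantile normalization 0.0701 and 0.0798. Apart from PRODH2, P5CS1 was the 1 call among the 6 genes in h3.3kd against h2a.z, where 34.1% of all genes were called. The log2 differences of PRODH2 from Col, -0.74 ± 0.25 in h3.3kd, 0.61 ± 0.25 in h2a.z and -0.55 ± 0.25 for the combined line, are likewise a description.

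ERD5 was at 71.4 to 89.4 times the TPM of PRODH2 in the Col libraries and 53.4 to 90.5 times in h2a.z. In h3.3kd the ratio was 120.5, 442 and 2829.7, and in the combined line 282, 123 and 333, all above the highest Col ratio, although ratios over so low a gene are imprecise. The coding sequences of ERD5 and PRODH2 were identical at 76.2% of aligned bases and shared no run longer than 17 bases.

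P5CDH, whose enzyme completes breakdown to glutamate, was at 33.5 ± 3.44 TPM in Col, 32.5 ± 8.28 in h3.3kd, 28.7 ± 1.78 in h2a.z and 25.9 ± 1.84 in the combined line (SD, n = 3). All h2a.z and combined libraries were below all Col libraries, but no change was called, and the largest was -0.35 ± 0.16 in the combined line (limma adjusted p = 0.157). Without h3.3kd library 2 that comparison was called for P5CDH and for P5CS2. Leaving PRODH2 aside, ERD5 and P5CDH gave 0 calls by limma in each comparison with Col, and 0, 1 and 1 of the 2 had an unadjusted p under 0.05 in h3.3kd, h2a.z and the combined line, as did 31.9%, 26.9% and 31.5% of all genes. Among the 5 genes other than PRODH2 the combined line had 0 calls by limma against Col, where 18.7% of all genes were called. At an unadjusted p under 0.05 it had 2 of 5, P5CS2 and P5CDH, against 31.5% of all genes.

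P5CDH overlaps SRO5 on the opposite strand, and the pair has been described as a source of small RNAs that lower P5CDH under salt stress. In the annotation they share 905 bases, and 811 exonic bases, which is 31.3% of the exonic bases of P5CDH and 45.5% of those of SRO5. The labels do not say that strand was kept, so reads in the overlap cannot be assigned between them. SRO5 was at 0.329, 0.188 and 0.656 TPM in Col, 0.832, 0.996 and 1.64 in h3.3kd, 1.57, 1.20 and 1.79 in h2a.z, and 0.806, 0.919 and 0.843 in the combined line. It was above Col in every library of the 3 other genotypes. SRO5 reached 1 TPM in all 3 h2a.z libraries and in 1 other, of h3.3kd, so it too passed the filter only through h2a.z, and its log2 difference of 0.86 ± 0.23 there is a description.

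**Figure D3:**
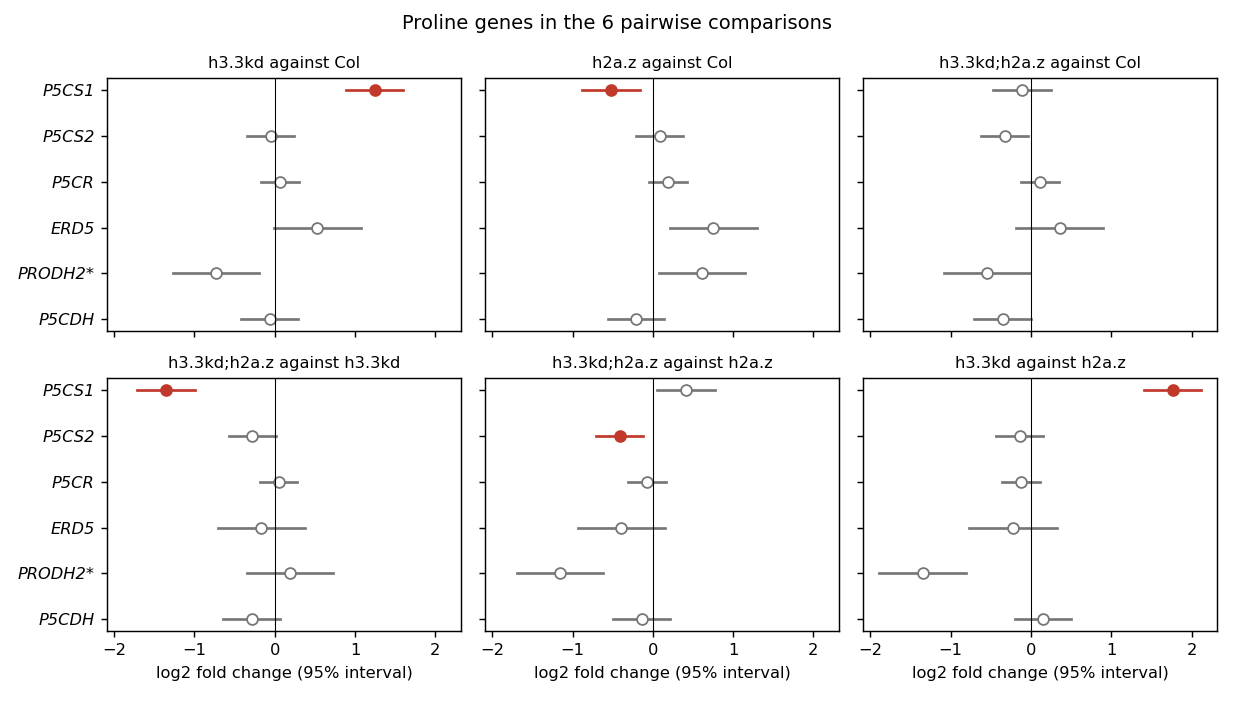
Log2 fold change of TPM + 1 (horizontal axes) with its 95% interval for the 6 genes in the 6 pairwise comparisons; filled red points were called by limma at an adjusted p under 0.05. P5CS1 is called in 4 panels. PRODH2 (asterisk) is drawn open throughout, since it passed the filter on low values only through h2a.z, and the panels that share a genotype share its libraries.

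Proline moves between cells through carriers, of which 6 were listed. In h2a.z, 2 of 6 were higher than in Col and 0 lower, with a median log2 change of 0.45 against 0.05 over all genes. AAP6, an amino acid permease, was at 19.9 to 23.6 TPM in h2a.z and 6.18 to 8.77 in Col (1.46 ± 0.17, limma adjusted p = 4.83e-05). LHT1, a carrier for root uptake and leaf supply of amino acids, was at 19.9 to 21.4 TPM in h2a.z and 6.21 to 10.8 in Col (1.34 ± 0.24, adjusted p = 0.00143). Over all genes, 10.5% were higher and 4.56% lower in this comparison. Neither range overlapped Col, and both calls held in all alternatives. In h3.3kd, 0 of 6 were higher and 1 lower, PROT1, a proline transporter, at -0.61 ± 0.15 (adjusted p = 0.013), where 11.9% of all genes were lower, with a list median of -0.23 against -0.12 over all genes. The combined line had PROT3 higher at 1.10 ± 0.27 (adjusted p = 0.0122) and PROT2 lower, with a list median of 0.04 against -0.10 and 6.17% of all genes higher and 12.6% lower.

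Of 8 tested genes of glutamate metabolism, 3 were higher in h2a.z than in Col and 0 lower, with a median of 0.35 against 0.05 over all genes, of which 10.5% were higher and 4.56% lower. All 3 encode glutamate decarboxylases, which draw on the same glutamate as proline synthesis. GAD4 was at 20.8, 24.0 and 32.7 TPM in h2a.z and 1.12, 1.54 and 0.892 in Col, a log2 change of 3.60 ± 0.34 (limma adjusted p = 6.59e-06). GAD2 rose by 0.82 ± 0.15 (adjusted p = 0.00177), and GAD1 was the remaining call. In h3.3kd only GDH1, a glutamate dehydrogenase, was called, at 0.47 ± 0.14 (adjusted p = 0.0344), where 5.41% of all genes were higher, and the list median was -0.27 against -0.12. In the combined line GDH1 was higher at 0.66 ± 0.14 (adjusted p = 0.00472) and GAD1 lower, a call that ended in 12 of 22 alternatives, where 6.17% of all genes were higher and 12.6% lower.

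The ornithine and arginine route feeds the same intermediate from another side, and most of its 13 genes were not called. Against Col, 1 was higher and 1 lower in h3.3kd, 0 and 1 in h2a.z, and 1 and 1 in the combined line, with medians of 0.03, 0.02 and 0.04. The shares over all genes were 5.41% higher and 11.9% lower, 10.5% and 4.56%, and 6.17% and 12.6%. The h3.3kd count depended on the scaling, with 3 higher under median ratios and 0 under quantile normalization, and the h2a.z median was below 0 under both. ARGAH2, an arginase, was at 7.02, 5.63 and 6.82 TPM in Col, 1.36, 1.19 and 1.52 in h3.3kd and 1.58, 2.38 and 2.58 in the combined line. It was lower than Col in all 6 of those libraries, by -1.67 ± 0.28 (limma adjusted p = 0.00134) and -1.25 ± 0.28 (adjusted p = 0.00643). NAOGACT, an acetyltransferase of ornithine synthesis, was lower in h2a.z at -0.78 ± 0.17 (adjusted p = 0.00527). DELTA-OAT, the ornithine aminotransferase that joins the 2 routes, was not called in any comparison with Col.

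Regulators of the proline genes were listed as 10 transcription factors, of which 9 were tested. They include the S1 group bZIP factors, known to bind ACTCAT in the proline dehydrogenase promoter. Against Col, 0 of 9 were higher and 1 lower in h3.3kd, 1 and 1 in h2a.z, and 0 and 2 in the combined line. The shares over all genes were 5.41% higher and 11.9% lower, 10.5% and 4.56%, and 6.17% and 12.6%, so the h3.3kd count was near its share. BZIP44 was at 17.3, 14.4 and 16.4 TPM in Col, 6.47, 6.71 and 12.5 in h3.3kd, 20.1, 25.3 and 23.8 in h2a.z and 7.71, 7.34 and 7.40 in the combined line. It was below Col in every h3.3kd and combined library, by -0.89 ± 0.21 (limma adjusted p = 0.0112) and -1.001 ± 0.21 (adjusted p = 0.00439). BZIP53 was also lower in the combined line, at -0.43 ± 0.11 (adjusted p = 0.0136). In h2a.z, BZIP11 was higher and HY5, a light response factor, lower, calls that ended in 5 and 9 of 22 alternatives. The h3.3kd calls of BZIP44, PROT1 and GDH1 ended in 2, 3 and 6 of 23 alternatives. Between the combined line and h2a.z, 5 of 9 were lower and 0 higher, all 5 of them S1 group bZIPs, where 19.3% of all genes were lower, and 3 of those calls (BZIP1, BZIP2 and BZIP11) ended under median ratio scaling.

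P5CS1 is also a gene of the ABA response, and 9 other genes of that response were listed for comparison. In h3.3kd, 6 of 9 were higher than in Col and 0 lower, where 5.41% of all genes were higher, and the list median was 1.025 against -0.12 over all genes. RD29B, a widely used ABA reporter gene, was at 49.0, 49.7 and 43.1 TPM in Col, 177, 159.8 and 200.4 in h3.3kd, 14.6, 29.7 and 16.9 in h2a.z and 39.7, 32.5 and 42.8 in the combined line. As with P5CS1, each h3.3kd library was above and each h2a.z library below all others. In h2a.z, 0 of 9 were higher and 3 lower (RAB18, RD29B and ABI1), where 4.56% of all genes were lower, and in the combined line 1 was higher (RD29A), where 6.17% were higher. Between the combined line and h3.3kd, 5 of 9 were lower and 0 higher, where 1.83% of all genes were lower. In h3.3kd, the calls of RD29A, RD29B and ABI2 held in all 23 alternatives, while those of HAI1, HAB1 and ABI1 ended in 1, 3 and 6 of 23. HAB1 and ABI1 were among those lost in the replicate block with Col and h3.3kd fitted alone. For h2a.z against Col, the ABI1 call ended in 5 of 22 alternatives, among them leaving out any 1 library of h2a.z. RAB18 ranged from 5.18 to 36.5 TPM in h2a.z and from 59.6 to 96.4 in Col.

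**Figure D4:**
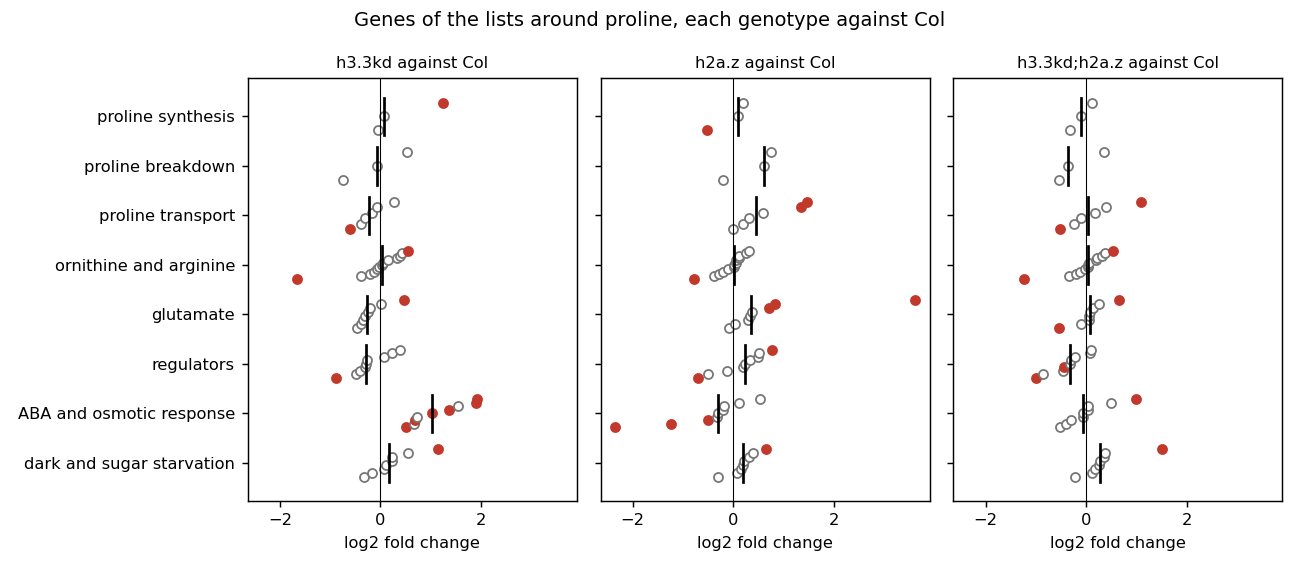
Log2 fold change of TPM + 1 (horizontal axes) of each tested gene in 8 lists, for the 3 genotypes against Col; filled red points were called by limma at an adjusted p under 0.05 and black bars are list medians. The ABA list lies highest in h3.3kd, with a median of 1.025, and the point farthest right in h2a.z is GAD4 at 3.60.

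Of 8 genes known to rise in darkness or sugar shortage, as ERD5 does, 1 was higher and 0 lower in each genotype against Col, where 5.41%, 10.5% and 6.17% of all genes were higher in h3.3kd, h2a.z and the combined line. BCAT2, an amino acid aminotransferase, was the call for h3.3kd and for the combined line, and DIN10 in h2a.z. The 3 genes for proline use in protein synthesis and release, PRORS1, PRORS-CYT and PIP, gave 1 call against Col, PIP at -0.62 ± 0.15 in the combined line (limma adjusted p = 0.0104), where 12.6% of all genes were lower.

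Over the 12 libraries, the named genes whose log2 values followed P5CS1 most closely were ADA2B, PP2CA and ABI2, with Pearson r of 0.982, 0.975 and 0.962. ADA2B is a histone acetylation adaptor, and PP2CA and ABI2 are protein phosphatases that restrain ABA signalling. The closest to PRODH2 were CYP71A19, SPP1 and CHX17 (0.962, 0.948 and 0.937), which were likewise highest in h2a.z and lowest in h3.3kd. ERD5 was followed by SIP2, WRKY25 and PIRL2 (0.903, 0.893 and 0.884), P5CS2 by PP2-A15, ROP2 and ERS1 (0.943, 0.942 and 0.940), P5CR by emb1129, WAG2 and PNC2 (0.944, 0.897 and 0.894), and P5CDH by CIPK18, VSR4 and ABCG3 (0.937, 0.922 and 0.911). These values describe the highest of about 8692 genes with a symbol, and the points share libraries and genotype means.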

How the data were processed

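Whole seedlings of 4 genotypes were sequenced, with 3 libraries each. The authors deposited 1 table of TPM for 23387 genes, and each column sums to 1000000. Per the submitters' processing notes, fastp 0.20.1, HISAT2, HTSeq 0.11.2 and DESeq2 1.26.0 were used with genome build TAIR10; their roles, the gene lengths and the counting mode are not stated. Per the labels' protocols, libraries were made with a NEBNext Ultra RNA kit. TPM are not counts, so no count test was run, and TPM keeps no depth.

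The scale was log2(TPM + 1), over the 19937 genes at 1 TPM or more in at least 3 of 12 libraries. One limma 3.58.1 model (R 4.3.3) fitted a mean per genotype with eBayes moderation along an intensity trend, and Benjamini-Hochberg adjustment covered every tested gene in each of 7 comparisons: the 6 pairs and the interaction, which is the combined line minus h2a.z, minus the difference of h3.3kd and Col. The script was tested on simulated data. Alternatives changed the pseudocount, the filter, the scaling, the block, array weights, the genotypes fitted and each library in turn.

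All 6 genes are named in every comparison, any called gene of the transport, glutamate, ornithine and arginine and regulator lists could be named, with values for at most the 5 of smallest adjusted p per comparison, and for likeness the 3 genes of highest r. The ABA, darkness and protein synthesis lists were described outside that rule. The genes and lists were chosen with earlier results of these data known. Of 90 listed genes 89 were in the table.

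Replicate numbers are shared between genotypes. Same-numbered h3.3kd and Col libraries deviated together (r = 0.31, 0.22 and 0.11), which meets the 0.1 minimum, and those of the other pairs of genotypes did not all do so. This pairing comes from the data, not from the labels.

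Names, positions, promoter windows and coding sequences come from RefSeq build TAIR10.1 and its own annotation, since the table has no coordinates. Protein identity was not computed and coding sequences were compared instead. Python 3.11.15, pandas 2.3.3, Biopython 1.88 and matplotlib 3.10.9 were used.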

Additional observations from a re-analysis of the deposited data

Results flagged for a closer look

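GAD4, a glutamate decarboxylase gene, differed in its response to lowered H3.3 between Col and h2a.z plants, with a limma interaction of -3.00 ± 0.49 on the log2 scale (adjusted p = 0.00367). GAD4 was at 0.892 to 1.54 TPM in Col, 0.335 to 0.930 in h3.3kd, 20.8 to 32.7 in h2a.z and 0.548 to 3.66 in the combined line. The call ended with a pseudocount of 0.1 (adjusted p 0.056). LHT1, the amino acid carrier, had an interaction of -1.72 ± 0.34 (limma adjusted p = 0.0142), with 6.21 to 10.8 TPM in Col, 9.16 to 9.31 in h3.3kd, 19.9 to 21.4 in h2a.z and 5.07 to 10.5 in the combined line.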

How the results depend on the processing

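Over 23 alternatives, the 6 genes gave 917 values, of which 844 kept direction and side of the threshold, 24 lost a call, 25 gained one and 24 changed sign, 0 of these among called values. P5CS1 stayed called in h3.3kd against Col, h3.3kd against h2a.z and the combined line against h3.3kd under every alternative run. Except where stated, the cause of a change was not tested.

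The number of the 6 genes called moved as follows, with PRODH2 counted but not read as a call. Calls over all genes moved too (ranges below), so these counts have no fixed background. In h3.3kd against Col it was 2 with no filter (P5CS1 and PRODH2) and 3 with array weights (P5CS1, ERD5 and PRODH2), a fit that stopped before its tolerance. For h2a.z against Col it was 0 with a pseudocount of 0.1 or 0.5, with no filter, and with a mean of 5 TPM or more. With the last filter, which drops PRODH2, it was 1 in the combined line against h2a.z (P5CS2, lower) and 1 in h3.3kd against h2a.z (P5CS1). Under quantile normalization it was 1 in each (P5CS1, higher), with P5CS2 and PRODH2 no longer called. Array weights gave 3 in the combined line against Col (P5CS2, PRODH2 and P5CDH) and 2 for the interaction (P5CS1 and ERD5). Leaving out Col 1 with h3.3kd 2 gave 1 in the combined line against Col (P5CDH). Leaving out 1 library at a time gave 1 to 3 calls in h3.3kd against Col, 0 to 2 in h2a.z against Col, 0 to 2 in the combined line against Col, 1 to 3 in the combined line against h2a.z and 0 to 1 for the interaction.

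With the replicate block, the count in the combined line against h2a.z was 1, PRODH2, not read as a call. P5CS2 had an adjusted p of 0.052 there, where 4992 of all genes were called, and no other call among the 6 changed. The block moved the count of all genes called in h3.3kd against Col from 3450 to 3590, and to 1728 with those genotypes fitted alone, an alternative added after the data were seen.

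All sign changes were uncalled. Median ratio scaling gave log2 changes of 0.0558 for P5CS2 and 0.0405 for P5CDH in h3.3kd against Col, 0.0644 for P5CR in the combined line against h2a.z, and 0.0104 for P5CS2 and 0.0275 for P5CR in h3.3kd against h2a.z. Quantile normalization gave -0.0129 for PRODH2 in the combined line against h3.3kd and 5e-04 for P5CDH in the interaction. Array weights gave -0.0042 for P5CR in the combined line against h3.3kd, and 0.0858 for ERD5 and -0.0172 for P5CDH in h3.3kd against h2a.z. Without Col 1 and h3.3kd 2, P5CDH was at -0.0445 in h3.3kd against h2a.z and 0.1517 in the interaction. Leaving out single libraries, the log2 changes against Col in h3.3kd ran from -0.1763 to 0.0547 for P5CS2 and -0.2579 to 0.0575 for P5CDH, and in the combined line from -0.2238 to 0.0832 for P5CS1. In the combined line against h3.3kd they ran from -0.0488 to 0.1058 for P5CR and -0.4426 to 0.082 for ERD5, in h3.3kd against h2a.z from -0.4389 to 0.0495 for ERD5 and -0.0445 to 0.271 for P5CDH, and in the interaction from -0.1975 to 0.1179 for P5CDH.

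Other scalings moved the whole table. The median log2 change over all genes went from -0.12 to -0.024 in h3.3kd against Col and from -0.10 to -0.01 in the combined line against Col under median ratios, and the share of calls that were higher went from 31.3% to 48% and from 32.9% to 45.9%. In h2a.z against Col that share went from 69.8% to 54.6% under quantile normalization. For the combined line against h2a.z it went from 21.7% to 38.1%, and for h3.3kd against h2a.z from 27.6% to 43.2%, both under median ratios. Among the listed genes, median ratios raised the darkness calls from 1 to 2 higher for h3.3kd and for the combined line, and quantile normalization raised the carriers from 1 to 2 higher in the combined line. Over all alternatives, genes called ranged from 1071 to 6817 in h3.3kd against Col, 1775 to 5516 in h2a.z against Col, 2363 to 6291 in the combined line against Col, 380 to 5471 in the combined line against h3.3kd, 3189 to 9173 in the combined line against h2a.z, 4669 to 11304 in h3.3kd against h2a.z and 234 to 2801 for the interaction.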
